A study of Homo sapiens with 16 samples.

Results

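The CEACAM genes encode carcinoembryonic antigen-related cell adhesion molecules, a family of immunoglobulin-like proteins on human chromosome 19, and 10 of them were examined of 19974 protein-coding genes on chromosomes 1 to 22 and X. They are CEACAM1, CEACAM3, CEACAM4, CEACAM5, CEACAM6, CEACAM7, CEACAM8, CEACAM16, CEACAM19 and CEACAM20. They are a listed subset of the family without CEACAM18 and CEACAM21, chosen by name with the H3K27me3, EZH2 and JARID2 peaks of these libraries already known, so their values are a description and carry no test. For each gene, distinct peaks were counted per library over the gene body and within 2 kb of either RefSeq end, where an overlap of 1 bp was enough.

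The peaks come from chromatin immunoprecipitation followed by sequencing (ChIP-seq) in 2 liver cell lines, 16 samples in all. HepG2, a line of hepatocellular carcinoma, was used for JARID2 alone. THLE-2, an immortalised line of non-tumour liver epithelium, was used for JARID2, for EZH2 and for H3K27me3, a histone mark. Each of these 4 groups has 2 libraries, described as biological replicates, and each library has its own input of sonicated chromatin. No treatment or genetic change is given for either line, and peak lists hold no expression, so liver markers could not be checked. The deposited lists hold 15738 and 4090 peaks for HepG2 JARID2, 5356 and 5532 for THLE-2 JARID2, 2112 and 3690 for THLE-2 EZH2 and 46198 and 90524 for THLE-2 H3K27me3. They rest on 7945155 to 39047005 filtered tags per precipitated library. The H3K27me3 lists, from the deepest libraries, are the longest, but the EZH2 lists, from the next deepest, are the shortest.

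H3K27me3 is a methyl mark on histone tails that is typical of genes kept silent in a cell type. It is written by the Polycomb complex PRC2, whose catalytic subunit is EZH2 and which JARID2, an accessory subunit, helps to recruit to chromatin. CEACAM proteins bind each other between cells, and several serve as receptors for bacteria. CEACAM5, the carcinoembryonic antigen, CEACAM6 and CEACAM7 sit on epithelia by a lipid anchor, CEACAM8 marks granulocytes, and CEACAM3 is a phagocytic receptor of granulocytes. CEACAM1 is a transmembrane receptor with inhibitory motifs that is made by hepatocytes, among other cells, and CEACAM16 is secreted in the inner ear.

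The start regions of 5 genes are shown here because they share a run of bases but differ in their peaks. Each line gives 250 bases before and 50 bases after the annotated start, from RefSeq on GRCh38.p14, written 5′ to 3′ on the strand of the gene. CEACAM3 lies on the plus strand (chr19:41796337-41796636), CEACAM6 on the plus strand (chr19:41755280-41755579), CEACAM7 on the minus strand (chr19:41688221-41688520), CEACAM5 on the plus strand (chr19:41708376-41708675) and CEACAM4 on the minus strand (chr19:41627025-41627324). Capitals mark a run of 14 bases that these regions share.
CEACAM3: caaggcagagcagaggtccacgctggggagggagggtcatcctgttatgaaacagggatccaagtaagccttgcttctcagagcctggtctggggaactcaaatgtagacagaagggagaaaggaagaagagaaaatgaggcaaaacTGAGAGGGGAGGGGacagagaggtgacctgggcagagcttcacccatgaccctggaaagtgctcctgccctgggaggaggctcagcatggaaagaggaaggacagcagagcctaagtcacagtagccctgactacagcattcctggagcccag
CEACAM6: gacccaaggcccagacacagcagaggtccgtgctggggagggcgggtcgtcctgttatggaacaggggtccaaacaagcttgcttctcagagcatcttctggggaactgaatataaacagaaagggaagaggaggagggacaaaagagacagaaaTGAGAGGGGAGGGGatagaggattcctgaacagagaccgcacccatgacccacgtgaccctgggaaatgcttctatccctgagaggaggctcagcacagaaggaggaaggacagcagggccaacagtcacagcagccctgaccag
CEACAM7: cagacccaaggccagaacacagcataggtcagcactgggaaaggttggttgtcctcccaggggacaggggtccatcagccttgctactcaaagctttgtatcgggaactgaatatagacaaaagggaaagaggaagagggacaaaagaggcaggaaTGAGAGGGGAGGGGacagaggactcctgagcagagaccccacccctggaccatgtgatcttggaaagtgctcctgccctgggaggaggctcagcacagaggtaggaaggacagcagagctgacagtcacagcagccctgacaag
CEACAM5: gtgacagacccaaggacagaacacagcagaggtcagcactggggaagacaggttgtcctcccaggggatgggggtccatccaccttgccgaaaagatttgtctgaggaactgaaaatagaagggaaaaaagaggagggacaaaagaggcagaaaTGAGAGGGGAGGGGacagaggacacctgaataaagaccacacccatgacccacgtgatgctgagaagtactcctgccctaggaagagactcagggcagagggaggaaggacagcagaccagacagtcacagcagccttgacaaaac
CEACAM4: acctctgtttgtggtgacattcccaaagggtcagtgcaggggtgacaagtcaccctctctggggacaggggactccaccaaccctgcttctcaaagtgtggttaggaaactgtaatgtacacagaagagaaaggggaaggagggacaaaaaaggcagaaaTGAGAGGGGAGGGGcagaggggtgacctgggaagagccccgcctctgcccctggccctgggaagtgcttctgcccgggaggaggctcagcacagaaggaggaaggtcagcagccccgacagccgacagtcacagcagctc

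All 300 bases lay in an H3K27me3 peak of both THLE-2 replicates at CEACAM3, CEACAM6 and CEACAM7, and none did at CEACAM5 and CEACAM4. The run TGAGAGGGGAGGGG was picked as the longest that exactly 6 CEACAM promoters hold, with CEACAM20 left aside, so that count was set beforehand. The 6, of 8 CEACAM promoters in the table, are CEACAM3, CEACAM4, CEACAM5, CEACAM6, CEACAM7 and CEACAM8. Of all 15813 protein-coding promoters, 8 hold the run (0.0506%, both strands), these 6 included. It begins 90 to 103 bases before the start in all 6. Global alignment of the 5 printed regions gave from 63.9% identical positions (CEACAM4 and CEACAM5) to 81.4% (CEACAM5 and CEACAM7). The CEACAM20 promoter was the least alike, with 42.6% to 48.7% to each of the other members in the table. The E-box CACGTG is in the CEACAM5 and CEACAM6 promoters and in 8.82% of all, and the GC box GGGCGG is in those of CEACAM1, CEACAM6 and CEACAM8 and in 58.3% of all (both strands searched). The 8 CEACAM promoters held 1 to 6 CG dinucleotides (median 3), against a median of 22 over the 15813 promoters. At most 19.4% of all promoters had fewer than any of the 8.

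H3K27me3 was called at more CEACAM genes than EZH2 or JARID2 was. In THLE-2, 6 of 10 genes had an H3K27me3 peak in both replicates, CEACAM7, CEACAM5, CEACAM6, CEACAM3, CEACAM8 and CEACAM20, where 14.4% of all protein-coding genes did. In replicate 1, 27 distinct peaks fell on 6 genes (15.2% of all genes called), and in replicate 2, 34 peaks fell on 7 genes (24.9% of all genes called). No peak belonged to a pair of CEACAM genes. Of coding genes on chromosome 19 the share called in both replicates was 8.48%, and of genes as long as these (11568 to 23517 bp) it was 9.33%. With peaks at the gene ends alone, 6 genes were called in replicate 1 (7.7% of all genes), 6 in replicate 2 (19.1%) and 6 in both (6.75%).

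**Figure D1:**
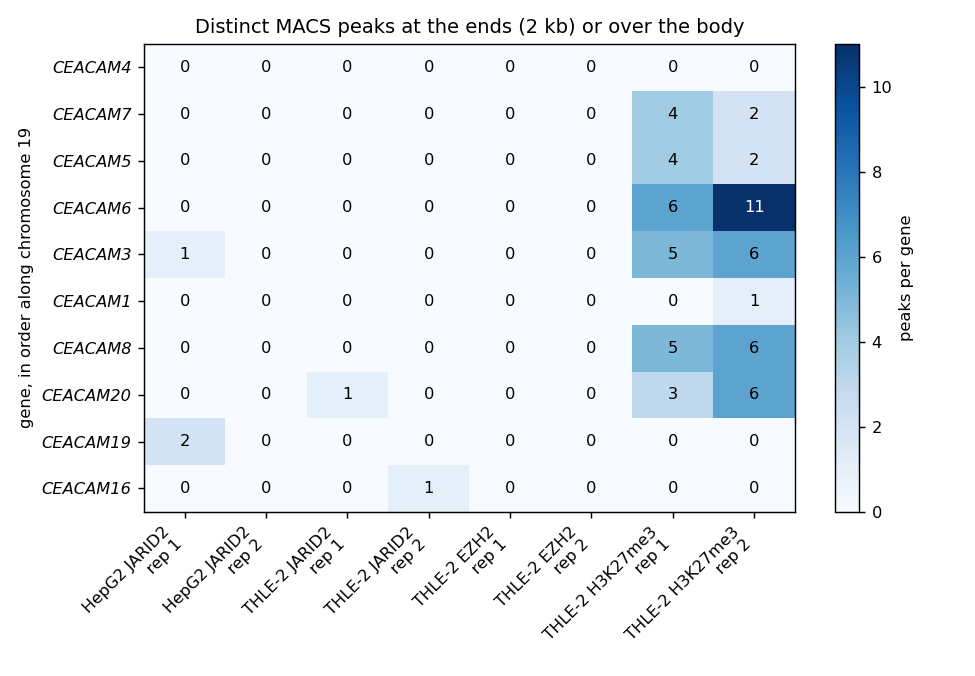
Number of distinct deposited peaks (colour and digit) for each CEACAM gene (rows, in order along chromosome 19) in each of the 8 libraries (columns). Both H3K27me3 columns hold nearly all peaks, with up to 11 at CEACAM6, and the EZH2 columns are 0 throughout.

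Coverage, the percent of the bases of a gene and its 2 kb flanks that lie in peaks, does not grow with gene length as a count does. Its mean over the 10 genes was 25.7% in H3K27me3 replicate 1 and 28.5% in replicate 2, against 2.48% and 6.21% over all protein-coding genes. The medians over the 10 genes were 21.9% and 22.2%, against 0% and 0% over all genes. The medians of both replicates lay close together, but the genes in the middle did not. CEACAM5 had 22.1% in replicate 1 and 7.81% in replicate 2, and CEACAM20 had 21.7% and 36.6%. The genes ranged from 0% to 69.4% in replicate 1 and from 0% to 82.7% in replicate 2.

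CEACAM3, CEACAM6 and CEACAM8 were the most covered in both replicates. CEACAM3 and CEACAM8 are granulocyte genes, but CEACAM4, another, had no peak. CEACAM3 (41796587 to 41811554) had 5 peaks over 69.4% of its bases in replicate 1 and 6 peaks over 82.7% in replicate 2. These shares exceeded those of 99.7% and 98.7% of coding genes, and 66.9% of its bases were covered in both replicates. CEACAM3 signals through an activating motif in its tail and drives uptake of bacteria by granulocytes. Its widest peaks ran over the far end of the gene, from 41807328 to 41813020 in replicate 1 with 333 tags and from 41807294 to 41815113 in replicate 2 with 701 tags. Its strongest peak had a fold enrichment over input of 16.9 in replicate 1 (41798199 to 41800156) and 16.98 in replicate 2 (41795983 to 41797724). These are different peaks that do not overlap. Each met a weaker peak of the other replicate, with a fold of 10.08 in replicate 2 and 9.17 in replicate 1.

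CEACAM8 (42580243 to 42594924), which encodes the granulocyte protein CD66b, was covered over 61% of its bases in replicate 1 and 44% in replicate 2, with 5 and 6 peaks. Its strongest peak in replicate 1 (42589741 to 42592443) had a fold of 18.35, above 99% of the peaks of that list and the highest of any CEACAM peak. Replicate 2 held the peak of highest score at these genes, 654.3, at 42587559 to 42589558, with a fold of 13.41 and 215 tags. Both replicates marked the body of CEACAM8 and left the 2 kb before its start without a peak. CEACAM4 (41613436 to 41627074), which encodes another granulocyte receptor, had no peak in any of the 8 libraries, and the nearest H3K27me3 peaks lay 54.8 kb and 54.7 kb away. Its start region holds the shared run all the same.

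Among the lipid-anchored epithelial genes, the replicates placed the mark alike at CEACAM7, in part alike at CEACAM6 and at different places at CEACAM5. CEACAM6 (41755530 to 41772211) had 6 peaks over 49.7% of its bases in replicate 1 and 11 peaks over 66.9% in replicate 2, and 39% was covered in both. Of 3 equal parts of its body, the middle was covered over 39.6% and 85.2%, and the strongest peak of replicate 2 (41765082 to 41767153, fold 14.95) met no peak of replicate 1. A peak over its start ran from 41754962 to 41755949 in replicate 1 (44 tags, fold 9.17) and from 41754997 to 41755945 in replicate 2 (77 tags, fold 6.62). CEACAM7 (41673303 to 41688270) had 4 peaks over 33.5% of its bases in replicate 1, all of which lay within the 43.6% that 2 peaks covered in replicate 2. Its mark was confined in both replicates to the starting side: of 3 equal parts of the body, the first was covered over 75.4% and 100%, the middle over 28.4% and 29.3%, and the last over 0% and 0%.

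CEACAM5 (41708626 to 41730519), whose product is used as a tumour marker of colorectal cancer, had 4 peaks over 22.1% of its bases in replicate 1 and 2 peaks over 7.81% in replicate 2. The peaks of replicate 1 lay between 41710203 and 41722029 and those of replicate 2 between 41726173 and 41730578. No base of the gene was covered in both replicates, and its call rests on peaks at different places. With overlapping peaks required, 5 of 10 genes remained, against 13% of all protein-coding genes, 7.37% of those on chromosome 19 and 8.08% of those as long as the CEACAM genes.

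**Figure D2:**
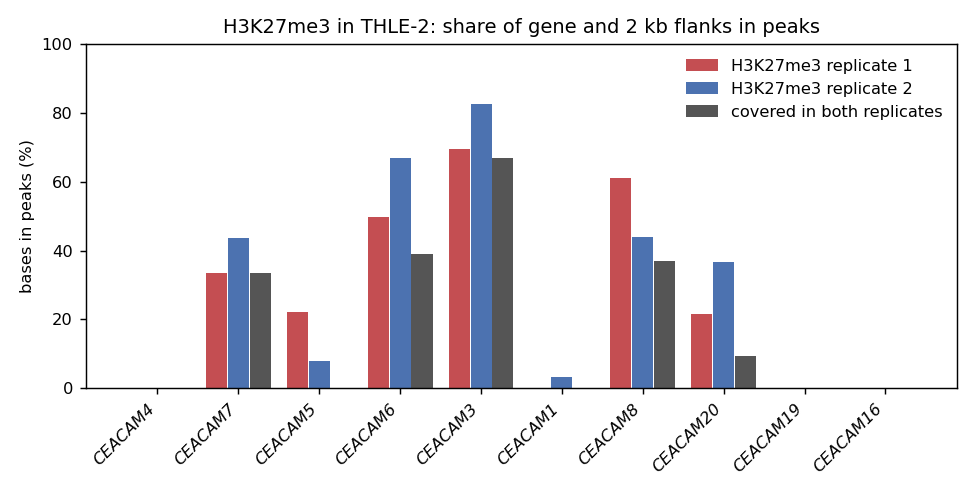
Percent of the bases of each CEACAM gene and its 2 kb flanks in H3K27me3 peaks of THLE-2, per replicate and in both. CEACAM3 is highest at 69.4% and 82.7%, CEACAM5 has no base covered in both, and CEACAM4, CEACAM19 and CEACAM16 are at 0.

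Of the remaining transmembrane genes, CEACAM20 carried the mark and CEACAM1 barely did. CEACAM20 (44506159 to 44529675), found on the microvilli of intestinal epithelium, had 3 peaks over 21.7% of its bases in replicate 1 and 6 peaks over 36.6% in replicate 2, with 9.32% covered in both. Its strongest folds were 9.14 and 10.51. CEACAM1 (42507306 to 42528481), the member that hepatocytes make, had no peak in replicate 1 and 1 peak in replicate 2, at 42514898 to 42515753 in the gene body with 37 tags and a fold of 7.16. That peak covered 3.4% of the bases, and its fold exceeded 31.6% of the peaks of its list. CEACAM19 (44665860 to 44684355) and the inner ear gene CEACAM16 (44699151 to 44710718) had no H3K27me3 peak, the nearest ones being 122 kb and 94.9 kb from CEACAM19 and 155 kb and 119 kb from CEACAM16.

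The annotated start lay inside a peak in both replicates at CEACAM3, CEACAM6 and CEACAM7, that is at 3 of the 8 CEACAM genes with a start in the promoter table. Over 15813 protein-coding genes this held for 1.91%. In replicate 1 alone it held for the same 3 genes and 2.42% of all, and in replicate 2 for the same 3 and 11% of all. At CEACAM8 the peak of replicate 2 began 30 bp after the start and that of replicate 1 began 1189 bp after it. At CEACAM5 the peaks of replicate 1 began 1577 bp after the start, and at CEACAM20 the first peaks began 3399 bp and 5948 bp after it.

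**Figure D3:**
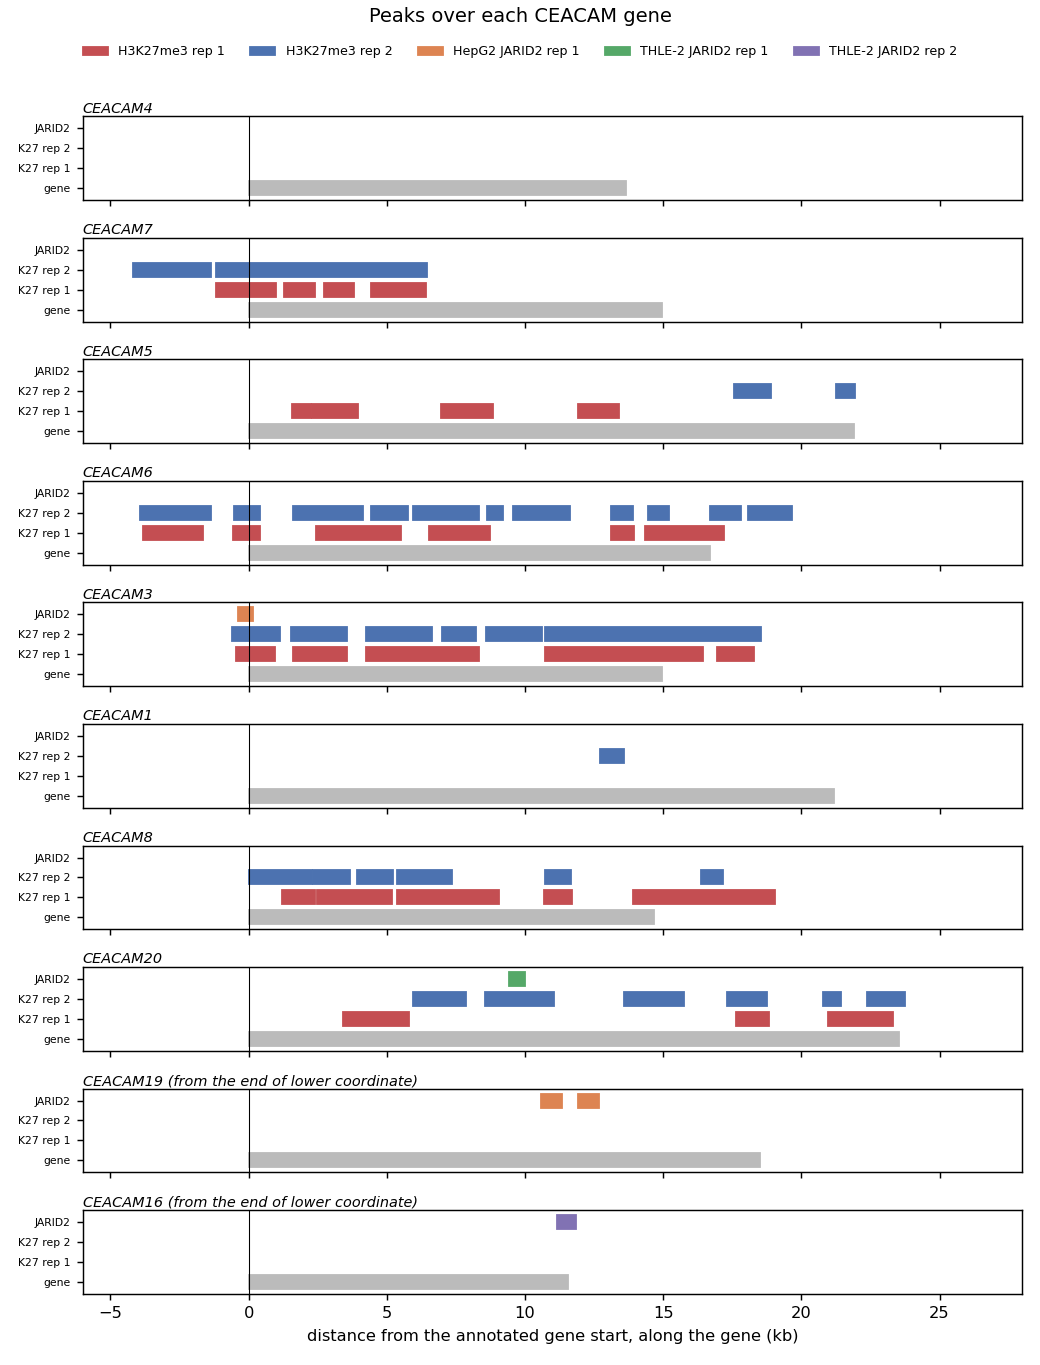
Peaks over each CEACAM gene, drawn from the annotated start (0) along the gene in kb, with the gene in grey, H3K27me3 replicates 1 and 2 in red and blue, and JARID2 peaks on the top line (CEACAM19 and CEACAM16 run from their end of lower coordinate). Both H3K27me3 replicates share blocks over CEACAM7, CEACAM6, CEACAM3 and CEACAM8, and the HepG2 JARID2 peak of CEACAM3 spans its start.

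The folds lay around the medians of their lists, on both sides. Over the CEACAM genes the fold enrichment had a median of 9.72 in replicate 1 and 7.21 in replicate 2, against 9.4 and 8.17 over the whole lists. It ranged from 7.29 to 18.35 in replicate 1 and from 3.59 to 16.98 in replicate 2. Peak widths had medians of 1960 and 1520 bp, against 1494 and 1117 bp over the lists. The authors' false discovery rate was 100% at the median of both H3K27me3 lists and at every one of the 61 H3K27me3 peaks of the CEACAM genes. With peaks of a score of at least 100 only, the same 6 genes were called in replicate 1 (10.2% of all genes), in replicate 2 (19.8%) and in both (9.45%). Among the 2000 peaks of highest fold in each list, only CEACAM3 was called in both (1.13% of all genes), since CEACAM5, CEACAM6, CEACAM3 and CEACAM8 were in that set in replicate 1 (2.52% of all genes) and CEACAM3 alone in replicate 2 (2.6%). The top peaks of CEACAM3 lay at different places in the replicates and did not overlap, but each met a peak of lower fold in the other replicate.

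**Figure D4:**
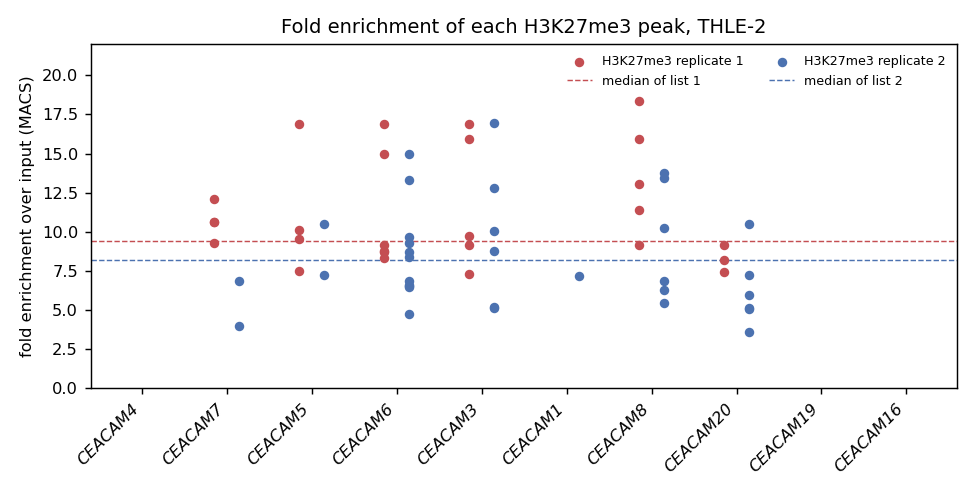
Fold enrichment over input, as the authors' peak caller gave it, of each H3K27me3 peak at the CEACAM genes in both THLE-2 replicates, with the median of each whole list as a dashed line. Points lie on both sides of the medians of 9.4 and 8.17, and the highest is 18.35 at CEACAM8 in replicate 1.

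Most peaks at these genes met a peak of the other replicate. Of the 27 peaks of replicate 1, 22 (81.5%) overlapped a peak of replicate 2, and of the 34 peaks of replicate 2, 24 (70.6%) overlapped a peak of replicate 1. Over the whole lists the shares were 72.1% and 40.3%. The lists are of unequal length, and the difference was not tested.

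**Figure D5:**
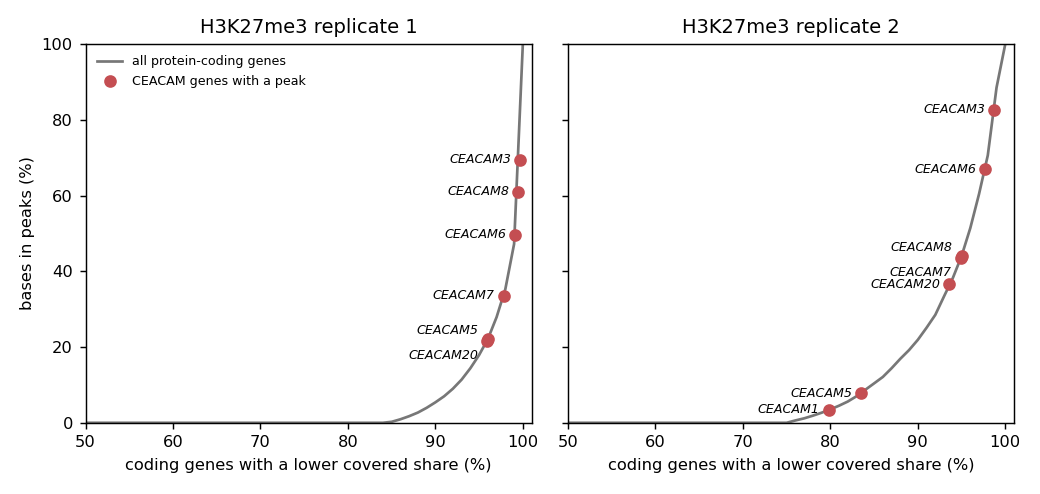
Percent of bases in H3K27me3 peaks against the percent of coding genes with a lower value, for all protein-coding genes (line) and the CEACAM genes with a peak (points), in replicates 1 and 2. CEACAM3 stands above 99.7% and 98.7% of coding genes, and CEACAM5 above 96% and 83.5%.

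Runs of genes with and without H3K27me3 peaks alternated along the chromosome, and peaks also lay between genes. From CEACAM4 to CEACAM3, a span of 198 kb with 5 of the genes, H3K27me3 peaks covered 26.2% of the bases in replicate 1 and 33.2% in replicate 2. The 87.6 kb from CEACAM1 to CEACAM8 were covered over 40.7% and 42.6%, and the 205 kb from CEACAM20 to CEACAM16 over 3.74% and 7.34%. These shares include the bases between the genes. The span from CEACAM1 to CEACAM8 held 15 and 18 peaks, against 5 and 6 at CEACAM8 and 0 and 1 at CEACAM1. Of the coding genes that flank these runs, LYPD4, next to CEACAM3, was covered over 91.3% and 68.2%, while CEACAM21, CXCL17, PSG3, ZNF180, IGSF23, PVR and BCL3 had no H3K27me3 peak. The genes of chromosome 19 whose coverage over the 8 libraries was nearest to that of CEACAM3 were KLK3, CD209 and ERICH4, with mean absolute differences of 2.28, 2.39 and 2.45 percentage points.

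EZH2 had no deposited peak at any of the 10 genes in either THLE-2 replicate. Over all protein-coding genes 7.29% and 9.74% had one in replicates 1 and 2, and 5.84% in both. The nearest EZH2 peak lay 99.3 kb from CEACAM3 in replicate 1 and 99.4 kb in replicate 2, and 686 kb and 687 kb from CEACAM20. No EZH2 peak was called within any of the 3 spans, where H3K27me3 had 28 and 38 peaks from CEACAM4 to CEACAM3 alone. On the whole of chromosome 19, EZH2 had 64 and 89 peaks in replicates 1 and 2, and H3K27me3 had 827 and 1563. How many of all genes with an H3K27me3 peak lack an EZH2 peak was not counted. A gene without a peak is one where the caller reported none, which does not show that the protein was absent.

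JARID2 peaks lay at 4 of the genes, each in 1 library only. In HepG2 replicate 1, CEACAM3 had 1 peak and CEACAM19 had 2 (37.5% of all genes called), and in HepG2 replicate 2 no CEACAM gene had one (6.92% of all genes called). In THLE-2, CEACAM20 had 1 peak in replicate 1 (13.9% of all genes called) and CEACAM16 had 1 in replicate 2 (13.6% of all genes called). No gene was called in both replicates of either line, where 4.13% of all genes were in HepG2 and 4.02% in THLE-2. The labels' protocol text names a JARID2 antibody for HepG2 replicate 1 and gives a single general antibody sentence for all other samples, inputs included, so it does not show which JARID2 antibody the other libraries had. The part of this in the JARID2 counts was not tested. HepG2 replicate 2 had 21 peaks on the whole of chromosome 19, or 0.515% of its list, and replicate 1 had 765, or 4.88%.

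The HepG2 peak at CEACAM3 sat on the start region printed above. It ran from 41796206 to 41796755 with its summit 17 bp before the annotated start, a fold of 11.95 and 9 tags. It covered the annotated start, as HepG2 JARID2 peaks of replicate 1 did at 11.9% of the 15813 genes with a start in the table, and all 550 of its bases lay in an H3K27me3 peak of both THLE-2 replicates. These are different lines, and no H3K27me3 library of HepG2 was analysed here. The peaks at CEACAM19 ran from 44676421 to 44677208 and from 44677769 to 44678540, in the gene body, with folds of 8.53 and 8.53 and 14 and 15 tags. The THLE-2 peak at CEACAM20 (44519685 to 44520269, fold 7.83, 12 tags) lay wholly within an H3K27me3 peak of replicate 2 and outside those of replicate 1. That at CEACAM16 (44710307 to 44710980, fold 6.24, 14 tags) covered the end of higher coordinate, which the antisense gene CEACAM16-AS1 also spans. The highest score of a JARID2 peak at these genes was 57.71 (HepG2 replicate 1, CEACAM19), against 654.3 for H3K27me3 (THLE-2 replicate 2, CEACAM8). These libraries differ in line, target and depth, with 7945155 and 38091806 filtered tags. The peaks were 772 and 2000 bp wide, with folds of 8.53 and 13.41. The part of depth and width in the scores was not tested.

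Of 12 relatives of these genes, 1 was called for H3K27me3 in both replicates. Of these 12 other genes of the family, CEACAM18, CEACAM21 and 10 PSG genes, which encode pregnancy-specific glycoproteins of the placenta, CEACAM18 alone had an H3K27me3 peak, in both replicates, with coverage of 12.8% and 68.2%, where 14.4% of all protein-coding genes and 8.48% of those on chromosome 19 were called in both. None of the 12 had a JARID2 or EZH2 peak in any library, where 6.92% to 37.5% of all genes had a JARID2 peak and 7.29% and 9.74% an EZH2 peak. The 10 PSG genes, which follow CEACAM8 on the chromosome, are close copies of one another, and the authors kept uniquely mapped reads, so reads shared between copies were not counted. The CEACAM genes resemble each other too, and the part of this in the presence or lack of peaks was not tested.

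Among signalling partners of CEACAM receptors, SYK, a kinase recruited to activating motifs, had 2 H3K27me3 peaks over 4.6% of its bases in THLE-2 replicate 1 and 7 peaks over 12.8% in replicate 2. Over all protein-coding genes, 14.4% had an H3K27me3 peak in both replicates. PTPN11, the phosphatase SHP2 that binds the inhibitory motifs of CEACAM1, and INSR, the insulin receptor, had THLE-2 JARID2 peaks in both replicates that did not overlap each other, where 4.02% of all genes were called in both. In HepG2 JARID2 replicate 1, 5 of the 10 partners were called (PTPN6, PTPN11, SRC, FGR and INSR), against 37.5% of all genes, and in replicate 2 none was, against 6.92%. INSR, SYK and PTPN11 are several times as long as the CEACAM genes, while PTPN6 and FGR are within their range of lengths. The part of gene length in these calls was not tested.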

How the data were processed

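The submitters' processing notes list GRCh38 as the build and Bowtie2, cutadapt and MACS 1.4.2 as tools, without their roles. Per the file headers, every precipitated library was called alone against its matched input at a p cutoff of 1e-05, on uniquely mapped reads, keeping 1 tag per position and scaling the larger library down. For each peak the authors deposited a tag count, a score (the log10 of the p times minus 10), a fold enrichment (a ratio to local background) and a false discovery rate in percent, and these are the caller's own values.

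Peaks on chromosomes 1 to 22 and X were joined to RefSeq genes of GRCh38.p14 with Python 3.11.15 and pandas 2.3.3, and promoters were aligned with Biopython 1.88. Interval counts were checked on planted peaks. The genes and lists were chosen with earlier results of these data known, so no test was run. Named genes are the 10 genes, list members called in both replicates of a group, flanking coding genes and the 3 genes of chromosome 19 nearest to CEACAM3 in coverage. The results of 1 list member are not reported here. Other genes are named for counts of 5 or fewer, after their values were seen. Alternatives varied the window, the overlap, the peak threshold, the list length, the merging of peaks and the replicates used.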

Additional observations from a re-analysis of the deposited data

How the results depend on the processing

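The number of CEACAM genes with H3K27me3 in both replicates stayed at 6 with gene ends only, 1 kb or 5 kb beyond the ends, the summit in the window or a score of at least 100, and was 5 with overlapping peaks required, an alternative chosen after seeing the data. It was 1 with the 2000 top peaks of each list, and 6 to 7 with a replicate left out. The EZH2 counts were 0 in every alternative run. The 61 H3K27me3 peaks of both replicates summed became 28 at gene ends, 38 with a score of at least 100, 8 among the 2000 top peaks, 33 with peaks under 1 kb apart merged, and 27 to 34 with a replicate left out. The 3 HepG2 JARID2 peaks became 1 at gene ends, 0 with a score of at least 100, 0 among the top peaks, and 0 to 3 with a replicate left out, while the gene count was 0 to 2. The 2 THLE-2 JARID2 peaks became 1, 0 and 0, and 1 with either replicate left out, when the gene count was also 1.

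The median H3K27me3 coverage of 22% (mean of both libraries) became 13.4% at gene ends, 23.8% and 21.6% with 1 kb and 5 kb beyond the ends, 13.1% with a score of at least 100 and 0% with the top peaks. The share of replicate 1 peaks that overlapped replicate 2, 81.5%, became 92.3% at gene ends, 66.7% with a score of at least 100 and 0% among the top peaks. These coverage and agreement alternatives were added after seeing the data. Fewer peaks, bases or libraries enter most of these settings by construction, and other causes were not tested. No paired analysis was possible because none of the results comes from a test, and the values of both replicates stand side by side instead.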

Other observations

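The pseudogenes of the family also carried the mark in part. Of 12 CEACAM pseudogenes on chromosome 19, 5 had an H3K27me3 peak in THLE-2 replicate 1 and 5 in replicate 2, and none had a JARID2 or EZH2 peak. Of all 552 pseudogenes of chromosome 19, 11.2% and 18.8% had an H3K27me3 peak in replicates 1 and 2, and of all 16664 on chromosomes 1 to 22 and X, 8.56% and 15.6%. CEACAMP1 (42620173 to 42633136), beyond CEACAM8, had 8 peaks over 65% of its bases and flanks in replicate 1 and 3 peaks over 68.5% in replicate 2. With flanks, CEACAMP5 (42654152 to 42663017) was covered over 49.4% and 60.6%, CEACAMP2 over 80.2% and 84.7%, CEACAMP4 over 45.4% and 64.7%, and CEACAM22P, next to CEACAM20, over 7.01% and 17.8%. CEACAMP2 (42560437 to 42560795) and CEACAMP4 (43303202 to 43303498) are short, so their shares describe mostly the 2 kb flanks. All 5 were chosen after their values were seen.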
